A study of Homo sapiens with 2 samples.

Results

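The genes examined here encode the splicing factors of the cell: the SR proteins, the hnRNP proteins and the proteins of the small nuclear ribonucleoproteins (snRNPs). They were chosen by a rule on gene symbols, as the SRSF, HNRNP, SNRP, SNRNP, SF3A or SF3B, U2AF and PRPF genes named in the annotation of the array. This gave 109 probes of 78 genes, among 18821 named genes on the array. Of the 78 genes, 72 were protein coding and 6 carried pseudogene symbols. RNA came from Hep3B cells, a human hepatocellular carcinoma line, that had been given either an inhibitor of miR-19b (anti-miR-19b, n = 1 array) or a control inhibitor (control, n = 1 array). Both were transfected with a lipid reagent at 90 pmol per well and RNA was taken at 24 h. The RNA was read on Human OneArray mRNA arrays with 1 dye, named Cy5 in the labels and fluorescein in the methods. The question of the study was which mRNAs differ when miR-19b is inhibited. A condition is 1 array, so no test was possible and there is no replicate error. Differences that arose in culture, extraction or hybridization cannot be told apart from an effect of the inhibitor.

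Splicing removes introns from precursor mRNA. The U1 snRNP binds the 5′ splice site, U2AF binds the 3′ splice site, and the U2 snRNP with its SF3A and SF3B subcomplexes binds the branch point, after which the tri-snRNP of U4, U6 and U5 joins and the catalytic complex forms with the help of PRPF proteins. SR proteins carry a domain rich in arginine and serine and mostly favor the use of exons near their binding sites, while hnRNP proteins coat nascent RNA and often oppose exon use. All of these are expressed in nearly every cell, and many SR and hnRNP genes adjust their own mRNA through unproductive splicing.

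The inhibitor was aimed at miR-19b, whose mature sequence is shown with that of miR-19a, a member of the same family from the same cluster. The capitals mark the seed, bases 2 to 8 of the microRNA, which pairs with target mRNAs and is the same GUGCAAA in both. RefSeq (GRCh38.p14) places miR-19b at chr13:91351245-91351267 on the plus strand, with a second copy at chrX:134169683-134169705 on the minus strand, and miR-19a at chr13:91350939-91350961 on the plus strand.
hsa-miR-19b-3p: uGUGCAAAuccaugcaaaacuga
hsa-miR-19a-3p: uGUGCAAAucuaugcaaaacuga

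Promoter windows, from 250 bases before to 50 bases after a gene's start, were taken from RefSeq (GRCh38.p14) for 65 of the 78 genes, which had 82 windows. The remaining 13 genes had no window in the table used. Motifs were searched on both strands and none of them holds another. The letters CCGGAAG, a core bound by ETS factors, were in 25.6% of the member windows, in 16.5% of the windows of genes with a bright probe (defined below) and in 10.3% of all 35116 windows. The classes differed: 6 of 8 SF3A or SF3B genes and 6 of 9 SNRP genes had the motif, against 3 of 20 HNRNP genes and 2 of 11 SRSF genes. Counted by gene, 21 of 65 members held it, as did 1774 of 8163 genes with a bright probe and 3321 of all 27305 genes. The CCAAT box showed another division. By window, it was in 63.3% of 30 HNRNP windows and 11.1% of 9 SF3A or SF3B windows, beside 45.1% of member windows, 35.0% of windows of genes with a bright probe and 34.6% of all windows. By gene, it was in at least 1 window of 18 of 20 HNRNP genes, 6 of 8 PRPF genes, 2 of 11 SRSF genes and 1 of 8 SF3A or SF3B genes, where a gene with several windows has more chances to hold it. Counted in this way, 35 of 65 members held it, as did 3522 of 8163 genes with a bright probe and 10846 of all 27305 genes. The GC box, GGGCGG, was in 56.1% of member windows and 45.0% of all windows (64.8% for genes with a bright probe), and TATAAA was in 8.54% and 11.5% (6.87% for genes with a bright probe). A match of this kind is a run of letters and no measured binding site.

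Windows of 4 members are shown because these genes mark the ends of the results below: SF3B1 and SF3B2 had the highest and lowest bright-probe ratios of their complex, HNRNPA2B1 was higher at both of its probes, and SNRPA was the lowest of the SNRP genes. Each runs 5′ to 3′ on the strand of its gene, and capitals mark the motifs found. The SF3B1 window (chr2:197434979-197435278, minus strand, the first of 2 listed) held none of the motifs. That of SF3B2 (chr11:66052114-66052413, plus strand) held CCGGAAG in both orientations, that of HNRNPA2B1 (chr7:26200697-26200996, minus strand) held 1 inverted CCAAT box, and that of SNRPA (chr19:40750953-40751252, plus strand) held 1 CCAAT box and 1 inverted GC box.
SF3B1: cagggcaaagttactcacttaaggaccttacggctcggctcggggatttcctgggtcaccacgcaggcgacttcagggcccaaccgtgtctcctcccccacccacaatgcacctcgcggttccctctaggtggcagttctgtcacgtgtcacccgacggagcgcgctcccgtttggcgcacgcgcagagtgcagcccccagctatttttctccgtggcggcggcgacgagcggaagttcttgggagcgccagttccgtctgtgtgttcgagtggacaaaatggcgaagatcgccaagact
SF3B2: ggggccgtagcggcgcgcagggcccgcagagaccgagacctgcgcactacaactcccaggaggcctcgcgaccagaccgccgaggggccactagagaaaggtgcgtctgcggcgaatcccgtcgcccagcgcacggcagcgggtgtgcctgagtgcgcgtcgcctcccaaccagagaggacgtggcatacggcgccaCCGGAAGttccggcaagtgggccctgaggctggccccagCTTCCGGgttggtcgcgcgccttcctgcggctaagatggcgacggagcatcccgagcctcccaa
HNRNPA2B1: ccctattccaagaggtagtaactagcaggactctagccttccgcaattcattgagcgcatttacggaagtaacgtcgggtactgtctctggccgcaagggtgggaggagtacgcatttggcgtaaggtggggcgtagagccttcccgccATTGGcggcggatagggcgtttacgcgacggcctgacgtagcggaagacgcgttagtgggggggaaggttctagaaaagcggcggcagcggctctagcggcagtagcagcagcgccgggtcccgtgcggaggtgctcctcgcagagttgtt
SNRPA: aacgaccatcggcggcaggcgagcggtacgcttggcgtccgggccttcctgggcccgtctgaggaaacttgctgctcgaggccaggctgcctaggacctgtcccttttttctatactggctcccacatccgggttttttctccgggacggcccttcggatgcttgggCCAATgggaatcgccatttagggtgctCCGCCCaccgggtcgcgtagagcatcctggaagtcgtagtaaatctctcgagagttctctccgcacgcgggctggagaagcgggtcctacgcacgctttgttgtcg

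Each probe has 1 deposited intensity for either array, normalized by the authors and linear, in arbitrary units. The median probe read 26.05 with the control and 28.1 with anti-miR-19b. Where a pair of intensities is given below, the control comes first. A log2 ratio, anti-miR-19b over control, was taken at the 26186 probes above 0 on both arrays. Probes with a mean level (geometric mean of both arrays) of at least 41.4, the median, are called bright, and the others dim. The ratio scattered far more at dim probes. Beside single values, the middle spread is given, which is the distance from percentile 16 to 84 of the log2 ratios at the 500 probes nearest in mean level, divided by 2. It describes other genes on the same arrays and is no replicate error. The line carried its liver markers, with 10 of 10 hepatocyte and hepatoma genes at bright probes (ALB 14382 and 15550). Control readings of these ran from 67.2 (FGB) to 33954 (GPC3). Of 12 markers of blood, endothelial, fibroblast and neuronal cells, 5 were bright, and the highest readings were 135 for CD14 with the control and 144 for SNAP25 with anti-miR-19b. FGB (67.2 and 68.6) was below these, so being bright does not by itself mark a liver gene.

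Splicing factors were mostly well above the floor of the array. Of the 109 probes, 83 were bright, 24 were dim and 2 were at or below 0. This left 68 genes with a bright probe, 9 genes with dim probes alone (SRSF10, HNRNPH2, HNRNPCL1, HNRNPCL2, SNRPE, PRPF18, PRPF38A, PRPF38B and PRPF40B), and HNRNPD, whose probe read -4.89 and -1.12 and gave no ratio. A second probe of HNRNPK, at -2.41 and -0.398, was likewise left out. Intensities of different probes are not amounts of RNA that can be set against each other, so the levels are given as they were read. Taking the brightest probe per gene, the control intensity had a median of 6019 over 12 SNRP genes, 1538 over 9 SF3A or SF3B genes, 1316 over 24 HNRNP genes, 1020 over 12 SRSF genes and 177 over 10 PRPF genes. The span was wide within each class, from 3.55 (SNRPE) to 36737 (SNRPD2) in the SNRP genes and from 10.0 (PRPF38B) to 2580 (PRPF31) in the PRPF genes.

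**Figure D1:**
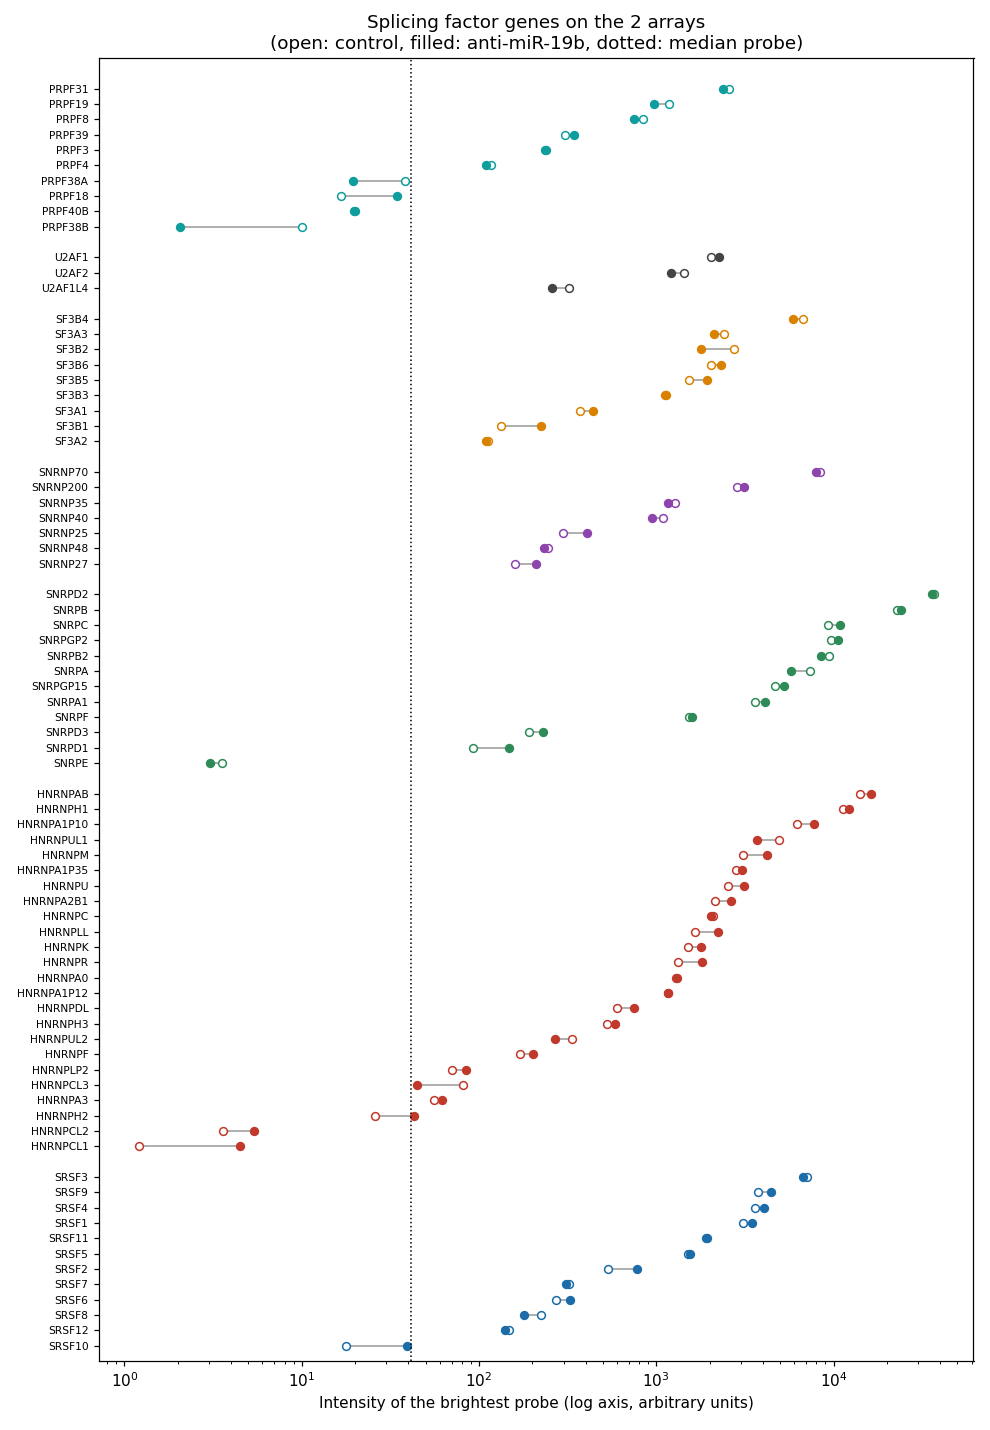
Intensity of the brightest probe of each splicing factor gene (log axis, arbitrary units), with open circles for the control array, filled circles for the anti-miR-19b array and a dotted line at the median level of all probes, 41.4. Most pairs lie to the right of the line, and the pair of PRPF38B (10.0 and 2.06), the widest of the PRPF genes, lies to its left.

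Most splicing factor genes differed little between the arrays. Of the 83 bright probes, 5 were over 1.5-fold higher with anti-miR-19b and 2 were over 1.5-fold lower, against 2.41% and 1.05% of all bright probes. The higher ones were read for SF3B1, SNRPD1, U2AF1, HNRNPLL and HNRNPCL3, and the lower ones for SF3B2 and, at another probe, HNRNPCL3. The higher HNRNPCL3 probe (31.8 and 60.2) counts as bright only through the array where it is high. Over all 107 probes compared, 12 were higher and 9 lower, where 13.8% and 12.0% of all probes were so. Counted by gene at bright probes, 3 of 68 genes were higher (SF3B1, SNRPD1 and HNRNPLL) and 1 was lower (SF3B2), beside 1.73% and 0.941% of all genes with a bright probe. With 50 added to each intensity SNRPD1 was at 0.46 and HNRNPLL at 0.41, both under 1.5-fold. SF3B1 was then at 0.22 over its 3 probes, dim ones included, where it was 0.29 without the offset. The count of higher bright probes among the members fell from 5 to 1. By its brightest probe alone HNRNPLL was at 0.44.

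As a whole, the splicing factors had a median slightly above that of the array, a difference that was not tested. The median log2 ratio of the 77 genes was 0.13, that of all 17438 genes 0.03, and at bright probes the medians were 0.12 over 68 genes and 0.02 over 9990. The share of genes with a bright probe and a ratio above 0 was 61.8% for splicing factors and 53.6% for all. Leaving out the pseudogene symbols and the HNRNPCL genes, the median over the 68 genes that remained was 0.06 (0.11 at bright probes). At the 47 member probes with a mean level of at least 1000, where the spread was smallest, the ratio ran from -0.61 to 0.46 with a median of 0.11, and the middle spread was 0.24, beside a median of 0.01 and a middle spread of 0.21 at all 2682 probes of that level. The classes were not alike. At bright probes the median was 0.24 for HNRNP (21 genes), 0.16 for SRSF (11), 0.13 for SNRP (11), -0.04 for SF3A and SF3B (9), -0.08 for SNRNP (7), -0.11 for PRPF (6) and -0.25 for U2AF (3).

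**Figure D2:**
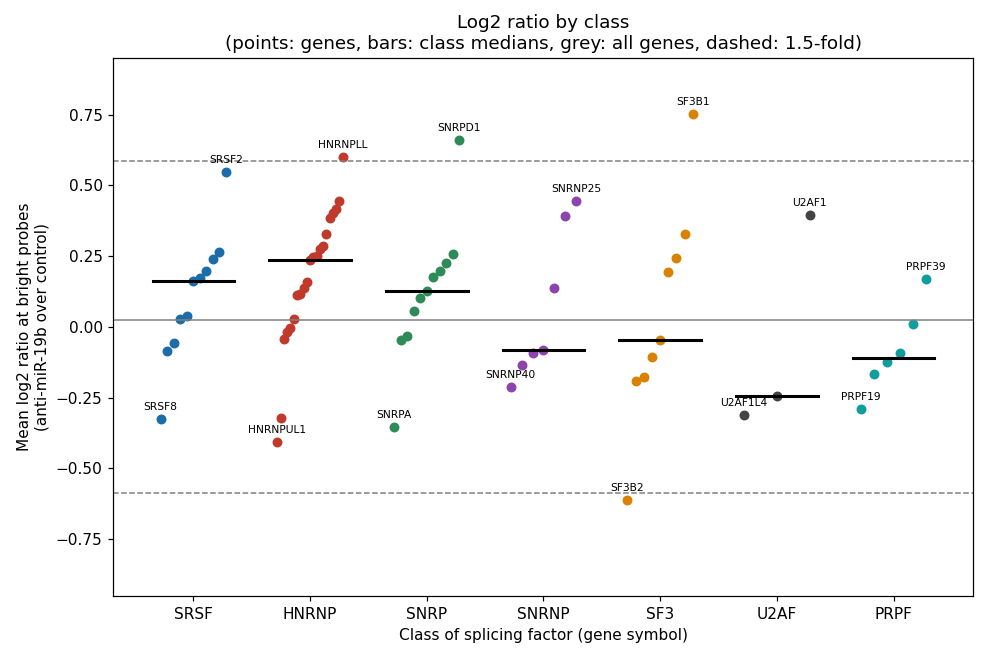
Mean log2 ratio at bright probes (anti-miR-19b over control) for each gene, by class, with a black bar at the class median, a grey line at the median of all genes (0.02) and dashed lines at 1.5-fold. The HNRNP bar, at 0.24, is the highest of the 7, SF3B1, SNRPD1 and HNRNPLL lie above the upper dashed line, and SF3B2 lies below the lower one.

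The hnRNP proteins stood highest as a class, with 16 of 21 genes above 0 at bright probes. HNRNPM, which regulates splicing in epithelial and mesenchymal cells, read 3096 with the control and 4212 with anti-miR-19b (log2 ratio 0.44, middle spread 0.20). HNRNPR, a relative of SYNCRIP, read 1333 and 1820 (0.45) at its brighter probe and 37.0 and 47.4 (0.35, middle spread 0.47) at the other. The weaker HNRNPR probe counts as bright only through the array where it is high. HNRNPA2B1, which binds RNA in the nucleus and in transport granules, read 2140 and 2645 at one probe and 1288 and 1777 at the other (0.31 and 0.46). Apart from the weaker HNRNPR probe, each of these ratios was larger than the middle spread at its level, and all were under 1.5-fold.

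HNRNPLL, which regulates alternative splicing in lymphocytes, was the one hnRNP gene over 1.5-fold in its mean over bright probes (0.60). It read 1656 and 2240 at the brighter probe (0.44) and 43.3 and 73.4 at a probe near the median level (0.76). HNRNPU, a scaffold protein of the nucleus, read 2540 and 3133 (0.30), 180 and 217 (0.27), and at a dim probe 14.1 and 8.80 (-0.68). HNRNPAB read 14168 and 16358 (0.21) and 3684 and 4514 (0.29), HNRNPDL 598 and 751 (0.33), and HNRNPK, which binds C-rich RNA, 1508 and 1792 (0.25). The 2 bright probes of HNRNPU and of HNRNPAB thus gave nearly the same ratio, while the dim HNRNPU probe lay on the other side of 0 where the middle spread was 0.65.

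HNRNPF (170 and 201, 0.24), HNRNPH1 (11255 and 12182, 0.11) and HNRNPH3 (529 and 582, 0.14), which bind G-rich runs, were within the middle spread, and HNRNPH2, at a dim probe, read 25.8 and 42.8 (0.73, middle spread 0.53). HNRNPA3 was just above the median level, at 55.5 and 62.0 (0.16). HNRNPC, which binds uridine tracts, read 2092 and 2033 (-0.04), and HNRNPA0 was flat at 3 probes, which read 1300.1 and 1308, 889 and 870, and 319 and 312 (0.01, -0.03 and -0.03). Apart from the copies described next, the bright genes below 0 beyond the middle spread were the HNRNPU-like pair. HNRNPUL1 read 4911 with the control and 3703 with anti-miR-19b (-0.41, middle spread 0.20), and HNRNPUL2 read 333 and 267 (-0.32, middle spread 0.25).

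Several hnRNP probes carry symbols of near-identical copies, and probes of this kind cannot be assigned to the copy or to its parent gene here. HNRNPA1P10 read 6257 and 7706 at one probe and 45.0 and 65.2 at the other (0.30 and 0.53), HNRNPA1P35 2830 and 3064 (0.11), HNRNPA1P12 1161 and 1158 (0.00) and HNRNPLP2 70.1 and 84.9 (0.28). No probe is named for HNRNPA1 or HNRNPL themselves in the annotation used. HNRNPCL3, of a family of HNRNPC copies, had the widest disagreement, at 81.6 and 44.9 (-0.86) against 31.8 and 60.2 (0.92), and a dim probe read 2.61 and 6.43 (1.30). HNRNPCL1 (1.21 and 4.46) and HNRNPCL2 (3.62 and 5.37) were near the floor. Without these copies the hnRNP median at bright probes was still 0.24, with 12 of 16 genes above 0.

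By its median at bright probes (0.16), the SR class lay closer to that of all genes (0.02) than the hnRNP class did (0.24). By the share of genes above 0 over all probes it did not, with 10 of 12 genes (83.3%), beside 75% for HNRNP and 53.1% for all genes. At bright probes 8 of 11 genes were above 0 and none was over 1.5-fold either way. SRSF2, known as SC35, had the highest ratio at a bright probe, with 532 for the control and 776 for anti-miR-19b (0.55, middle spread 0.23), and its dim probe gave 0.06. SRSF8, a close relative of SRSF2, was the lowest, at 223 and 178 (-0.32) and, dim, at 22.4 and 19.0 (-0.23). These relatives therefore lay at opposite ends of the class, though they are similar enough that a probe may read both, which was not tested.

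The founding member SRSF1 read 3088 and 3484 (0.17) and, dim, 30.7 and 29.5 (-0.06). SRSF3, the smallest SR protein, read 7117 and 6727 (-0.08) at the brightest probe of the class and 50.6 and 70.6 (0.48) at a weaker one. SRSF9 read 3766 and 4453 (0.24), SRSF4 3618 and 4050 (0.16) and SRSF6 273 and 328 (0.26). SRSF5 (0.04), SRSF7 (-0.06), SRSF11 (0.03) and SRSF12 (-0.08 at 148 and 139) were all within 0.1 of 0 at bright probes. The one SR gene over 1.5-fold was SRSF10, a repressor of splicing in heat shock and mitosis, at a dim probe that read 17.7 and 39.4 (1.16, middle spread 0.56).

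**Figure D3:**
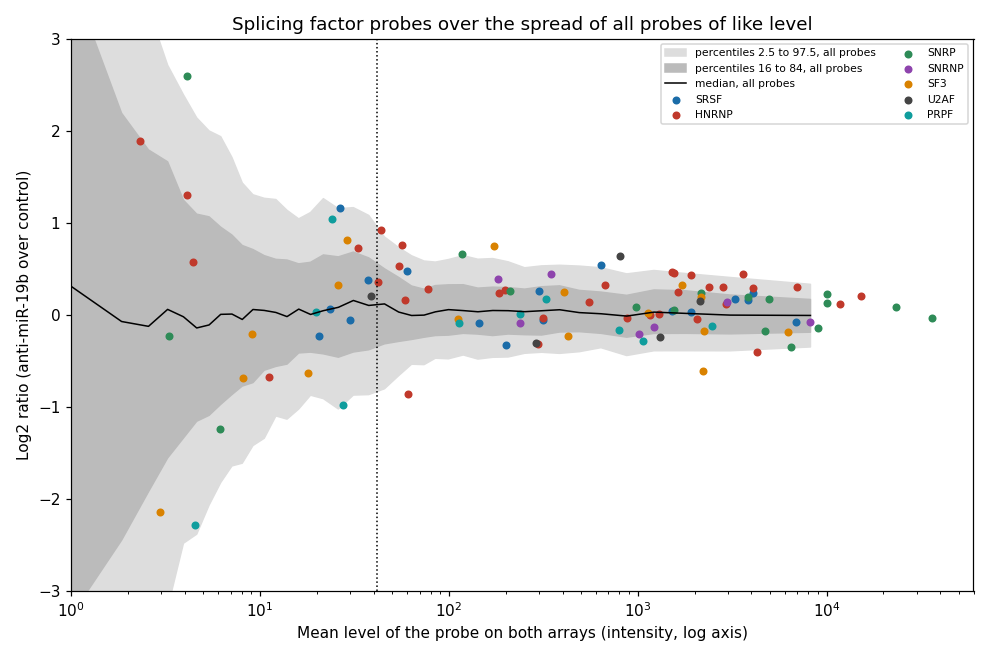
Log2 ratio of each splicing factor probe against its mean level (log axis), colored by class, over grey bands for all probes of like level (inner band percentiles 16 to 84) and a dotted line at the median level. The bands narrow from left to right, and member probes over 1.5-fold at or above the line are few (5 higher and 2 lower).

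Among the SNRP genes, which encode the Sm ring and proteins of the U1 and U2 particles, the Sm protein SNRPD1 alone was over 1.5-fold at a bright probe, reading 93.0 and 147 (0.66, middle spread 0.26). The other Sm proteins were flatter. SNRPD2 read 36737 and 35897 (-0.03), the highest intensity among the members, with 1992 and 2349 (0.24) at a second probe and a ratio of -1.24 at a dim one. SNRPB read 22777 and 24115 (0.08) and 4993 and 4419 (-0.18), SNRPD3 192 and 229 (0.26) and SNRPF 1529 and 1591 (0.06), while SNRPE lay near the floor at 3.55 and 3.03. No probe is named for SNRPG, and 2 pseudogene symbols of it were read at 4677 and 5283 (SNRPGP15, 0.18, with a second probe near the floor at 1.67 and 10.1) and at 9639 and 10537 (SNRPGP2, 0.13). Without them the SNRP median over all probes, dim ones included, was 0.01, where it was 0.09 with them. At bright probes the median was 0.13 with them, and the middle value of the remaining genes was that of SNRPD2, 0.10.

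The U1 snRNP proteins diverged. SNRPA, the A protein of U1, read 7361 with the control and 5762 with anti-miR-19b (-0.35, middle spread 0.19), SNRPC 9335 and 10909 (0.22, middle spread 0.17), and SNRNP70, the U1 70K protein, 8434 and 7963 (-0.08, middle spread 0.18). One was thus lower and one higher by more than the middle spread, and the third was within it. In the U2 snRNP, SNRPA1 read 3583 and 4109 (0.20), while SNRPB2 read 9466 and 8547 (-0.15) and, at another probe, 955 and 1010 (0.08).

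The SF3A and SF3B subunits of the U2 snRNP held both extremes among genes averaged over bright probes. SF3B1, the large subunit that contacts the branch point and is mutated in myelodysplasia and uveal melanoma, read 133 and 224 (0.75, 1.68-fold, middle spread 0.27), and its 2 dim probes read 23.2 and 29.0 (0.32) and 9.71 and 8.43 (-0.20), so that the mean over the 3 probes was 0.29. Its partner SF3B2 lay on the other side of 0, with 2729 for the control and 1786 for anti-miR-19b (-0.61, middle spread 0.23), the control value being 1.53 times the other. Both are entries in the study's own lists of changed genes, which were drawn from these arrays, so their size here is no independent evidence. At bright probes the rest of SF3B lay between them, with SF3B3 at 1121 and 1136 (0.02) and at 465 and 395 (-0.23), SF3B4 at 6700 and 5870 (-0.19), SF3B5 at 1538 and 1930 (0.33) and SF3B6 at 2026 and 2315 (0.19). A dim SF3B3 probe read 22.3 and 14.4 (-0.64, middle spread 0.48), and the mean over the 3 SF3B3 probes was -0.28.

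SF3A was within 1.5-fold at its bright probes, with SF3A1 at 373 and 441 (0.24), SF3A2 at 113 and 110 (-0.04) and SF3A3 at 2396 and 2122 (-0.18). Dim probes of the same genes gave -0.68, -2.14 and 0.81. The gene mean of SF3A2 was therefore over 1.5-fold lower (-1.09) on account of a probe at 6.16 and 1.40. The direction of the median of these 9 genes depended on the handling of dim probes: it was -0.19 over all probes, -0.04 at bright ones, 0.02 at the brightest probe of each gene and 0.06 with an offset of 50.

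U2AF, the 3′ splice site factor, gave different ratios for its subunits. U2AF1, the small subunit that reads the terminal AG, read 2037 and 2260 (0.15) at one probe and 643 and 1002 (0.64, middle spread 0.23) at the other, so that one probe passed 1.5-fold and the other was within the middle spread. U2AF2, the large subunit, read 1427 and 1204 (-0.25) and, dim, 35.9 and 41.5 (0.21). U2AF1L4, a relative of U2AF1, read 322 and 260 (-0.31). The U2AF1 probes may also read near-identical copies of that gene, which was not tested.

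The SNRNP genes, whose proteins belong to single particles, were all within 1.5-fold. SNRNP25 read 298 and 406 (0.45, middle spread 0.25) and belongs with SNRNP35 (1283 and 1169, -0.13) and SNRNP48 (247 and 231, -0.09) to the U11 part of the minor spliceosome. One of the 3 was thus above the middle spread and the other two were within it. In the tri-snRNP, SNRNP27 read 159 and 208 (0.39), the helicase SNRNP200 2838 and 3120 (0.14) and the U5 protein SNRNP40 1094 and 945 (-0.21).

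Of the PRPF genes, 6 of 10 had a bright probe, and 4 of these 6 were below 0. PRPF8, the scaffold at the catalytic center, read 842 and 751 (-0.16), the ubiquitin ligase PRPF19 1185 and 970 (-0.29), and the tri-snRNP protein PRPF31 2580 and 2367 (-0.12). PRPF19 exceeded the middle spread of 0.23 and the other two did not. PRPF4 (117 and 110, -0.09), PRPF3 (237 and 238, 0.01) and PRPF39 (307 and 345, 0.17) were within it. The genes over 1.5-fold were all dim: PRPF18, a factor of the second step, read 16.7 and 34.5 (1.04), PRPF38A 38.4 and 19.5 (-0.98) and PRPF38B 10.0 and 2.06 (-2.29), while PRPF40B read 19.6 and 20.0 (0.03).

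Probes of the same gene were compared as the nearest thing to a repeat measurement. Of 13 members with exactly 2 bright probes, 7 had both ratios above 0, 0 had both below and 6 had them on opposite sides. Over all 1629 such genes of the array, 37.1% had both above 0 and 56.8% had both on the same side, beside 53.8% of the members. The difference between the 2 ratios had a median of 0.25 in members and 0.24 in all genes. In 3 members a probe was over 1.5-fold (HNRNPLL, HNRNPCL3 and U2AF1), and in 0 of them did the other probe pass the same way, as against 5 of 139 genes over the whole array. With 2 or more bright probes, every ratio was on the same side in 7 of 14 members (50%) and in 54.8% of genes. With dim probes included, this held in 10 of 24 members (41.7%) and in 50.7% of genes over the array.

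Among genes with exactly 2 bright probes the agreement differed by class, over few pairs, and the difference was not tested. HNRNPA0, whose 3 bright probes lay on both sides of 0 (0.01, -0.03 and -0.03), is not among these pairs. In hnRNP genes 6 of 7 pairs had both probes above 0 (HNRNPA2B1, HNRNPAB, HNRNPLL, HNRNPR, HNRNPU and HNRNPA1P10), the exception was HNRNPCL3, and the median difference was 0.16. The weaker probes of HNRNPR (37.0 and 47.4) and HNRNPCL3 count as bright only through the array where they are high, here and in the counts above. In SNRP genes 0 of 3 pairs agreed (SNRPB, SNRPB2 and SNRPD2), with ratios between -0.18 and 0.24. Where a member had bright and dim probes together (14 genes), the dim value lay on the same side of 0 as the bright one in 7 and was over 1.5-fold in 8, while the bright value was over 1.5-fold in 1 (SF3B1). Dim probes often passed 1.5-fold over the whole array. Of all 26186 probes compared, 3603 were higher and 3132 lower, and the 13093 bright ones gave only 316 and 138 of these. The same-side share of bright with dim probes was not taken over the array.

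**Figure D4:**
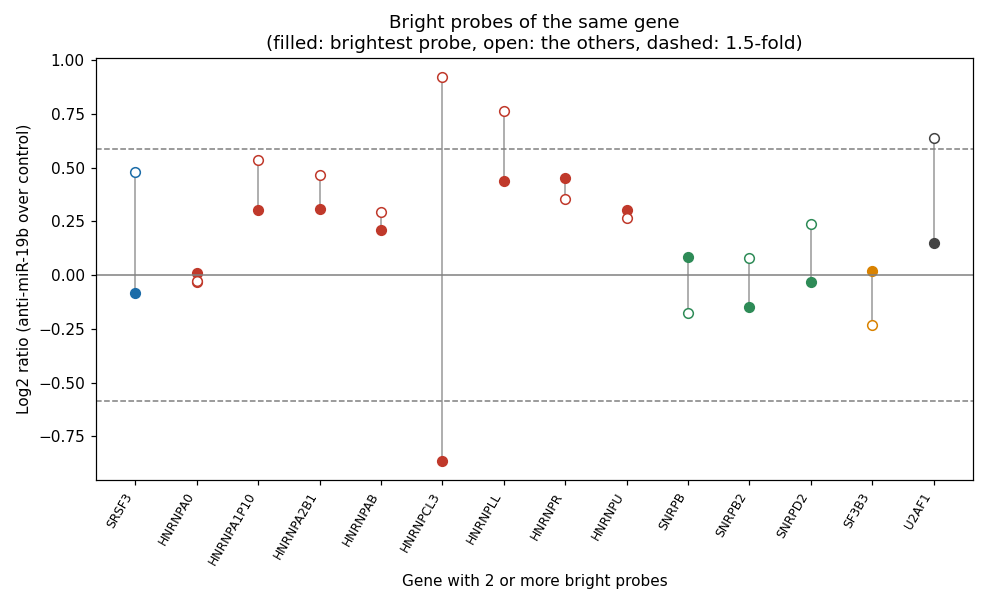
Log2 ratios of the bright probes of each splicing factor gene with 2 or more of them, filled for the brightest probe and open for the others, with dashed lines at 1.5-fold. The hnRNP pairs other than HNRNPCL3 lie above 0, the 3 HNRNPA0 probes lie around it (0.01, -0.03 and -0.03), and the pairs of SNRPB, SNRPB2 and SNRPD2 lie on both sides of it.

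The rest of the splicing machinery was read from 8 lists with 171 genes, of which 162 were compared and 132 had a bright probe. At bright probes 1 gene was over 1.5-fold higher and 1 lower, with 1.73% and 0.941% as the shares of all genes, and the median was 0.09 with 64.4% of genes above 0. By list, the medians were 0.17 for LSM proteins (8 genes), most of which form the ring on U6, 0.16 for other U2 and tri-snRNP proteins (21), 0.13 for minor spliceosome proteins (5), 0.12 for SR kinases and SR-related proteins (19), 0.07 for the PRP19 complex and catalytic proteins (21), 0.06 for the exon junction complex and mRNA export (13), and 0.05 for the assembly of Sm proteins (13) and for other splicing regulators (33). Each was above the median of all genes with a bright probe, 0.02.

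The 2 genes past the threshold were single bright probes. PDCD7, a protein of the U11/U12 particle and thus a partner of SNRNP25, SNRNP35 and SNRNP48, read 24.1 and 134 (2.47), so that it counts as bright only through the array where it is high, and SLU7, a factor of the second step, read 263 and 96.7 (-1.44) while its dim probe read 20.4 and 35.2 (0.79). MATR3, an RNA-binding protein of the nuclear matrix, was higher at both probes, at 1272 and 1718 (0.43) and 155 and 241 (0.63). RBM25 was split, at 241 and 152 (-0.66) and 42.3 and 67.4 (0.67). Other ends of the lists were closer to 0. At the upper ends, PUF60 read 1289 and 1583 (0.30). HSPA8 gave 0.28, the mean of 0.04 and 0.52 at bright probes, and LSM5 gave 0.24, the mean of 0.09 and 0.40. At the lower ends, RBM6 gave -0.38, SCAF1 -0.28, ACIN1 -0.28, GEMIN8 -0.24, SUGP1 -0.20, LSM7 -0.13 and ZMAT5 -0.06. The kinase CLK2, which phosphorylates SR proteins, read 161 and 229 (0.51), and GEMIN2 of the SMN complex, which loads Sm proteins onto snRNA, read 1670 and 2227 (0.42), and SAP18 of the exon junction complex read 86.6 and 114 (0.40).

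**Figure D5:**
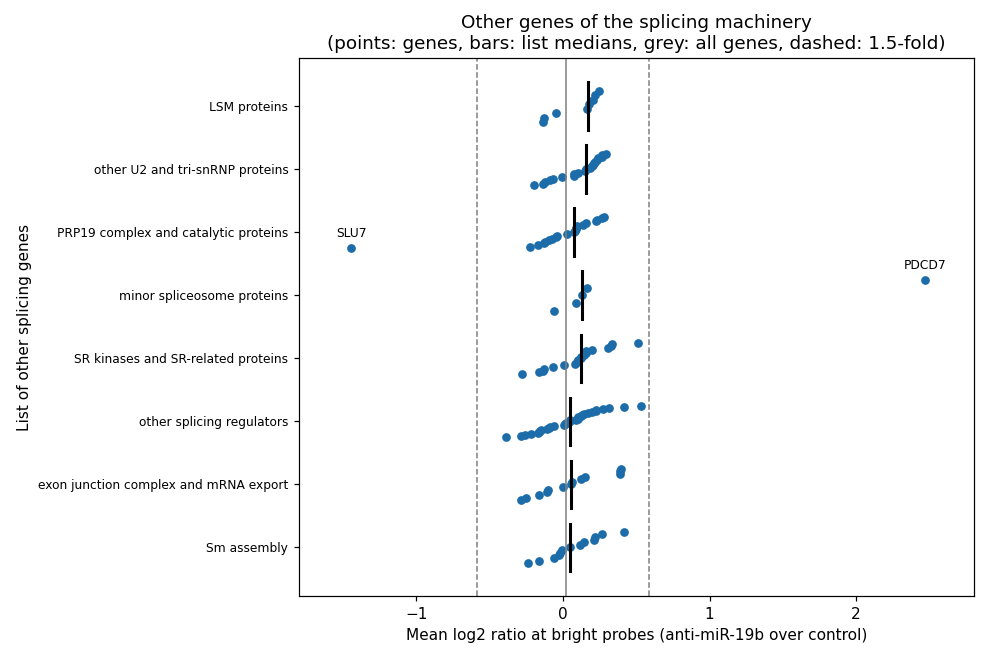
Mean log2 ratio at bright probes for each gene of 8 lists of other splicing genes, with a black bar at the list median, a grey line at the median of all genes and dashed lines at 1.5-fold. The list medians lie between 0.05 and 0.17, and PDCD7 (2.47) and SLU7 (-1.44) stand outside the dashed lines.

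Ratios were also set against the promoter motifs, as a description. Members with CCGGAAG had a median of 0.12 at bright probes (18 genes) and those without 0.11 (37 genes), and for the GC box the medians were 0.11 (37 genes) and 0.11 (18 genes). With the CCAAT box, which most HNRNP genes hold, the median was 0.14 (29 genes, from -0.41 to 0.60), and without it 0.03 (26 genes, from -0.61 to 0.75), so that the ranges overlapped almost wholly.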

How the data were processed

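The 2 samples were grouped by title. From each Human OneArray hybridization (29187 probes, 1 dye) the authors deposited a linear, normalized intensity for every probe, which can be below 0. How background was corrected and how values were normalized was not given in the sources used here. Precision is limited by there being 1 array in either group.

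Symbols came from the platform annotation (25053 probes with 1 symbol, 4134 with none) and were updated by Entrez ID in a RefSeq table (GRCh38.p14, names only; 24981 probes found). No member symbol changed. Of 81 protein-coding symbols that match the rule, 9 had no named probe, HNRNPA1, HNRNPL and SNRPG among them, and were not analysed here. Log2 ratios used the 26186 probes above 0 on both arrays. A gene's value is the mean over its probes, or over its bright probes where stated. The threshold of 1.5-fold is that of the study. The study also listed a P-value for each of its lowered genes, by a test it does not name, and these were not used here. Any member may be named: intensities are given for those over 1.5-fold, the 3 brightest and 3 dimmest of a class, those with several bright probes, and SF3B1 and SF3B2. Values of other members were added for completeness. In the other lists, genes over 1.5-fold and the ends of a list could be named, and RBM25 was named after its values were seen. The members and lists were chosen with earlier results of these data known.

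The steps were tested on simulated data. Alternatives were centring, quantile or loess normalization, an offset of 50, bright probes alone, a 2-fold threshold, taking each gene at its brightest probe, and leaving out near-identical copies. Software was matplotlib 3.10.9, statsmodels 0.14.6, pandas 2.3.3, numpy 2.4.6 and scipy 1.17.1 in Python 3.11.15.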

Additional observations from a re-analysis of the deposited data

How the results depend on the processing

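No paired analysis was possible because there was only 1 array of either kind. Centring on the median ratio, quantile normalization and removal of a loess trend (fraction 0.3) moved no count of members by over 1.5 times and no class or list median by over 0.1. The settings that treat dim probes differently did. The counts of member probes over 1.5-fold, 12 higher and 9 lower, became 5 and 2 when dim probes were left out, 1 and 1 after adding 50 to each intensity, 6 and 4 with 1 probe a gene (the brightest), and 5 and 3 at 2-fold. By construction each takes fewer probes, shrinks dim ratios or raises the threshold. The counts over the whole array fell as well. There, 3603 higher and 3132 lower of 26186 probes became 316 and 138 of 13093 without dim probes. With the offset they became 85 and 51 of 29187. At bright probes, 5 higher and 2 lower became 1 and 1 with the offset, 2 higher with 1 probe a gene, and 0 and 0 at 2-fold. Without pseudogene symbols and HNRNPCL genes, an alternative added after seeing the data, 1 bright probe was lower. The offset gave a median of 0.12 for HNRNP, 0.061 for SF3A and SF3B and 0.042 for minor spliceosome proteins. The SF3A and SF3B median was -0.045 at bright probes and 0.020 at the brightest probe, against -0.19 over all probes, and that of U2AF was -0.25 in both, where it was -0.02 over all probes. Single gene means moved by over 0.1 in 24 of 77 genes with the offset, 19 of 77 at the brightest probe, 13 of 68 at bright probes and 2 of 77 with quantile normalization.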
